A study of Mus musculus with 8 samples.

Results

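Wnt ligands, their receptors and the secreted proteins that modulate them were followed across the 8 arrays of a mouse study of telencephalon carrying Dlx1/2 mutations. The members are the genes whose single annotated symbol begins with Wnt, Fzd, Rspo, Sfrp or Dkk and a number, together with Lrp5, Lrp6, Axin2 and Lef1. The rule found 46 genes, measured by 88 probe sets, of 18193 genes with a probe set naming 1 symbol. Each gene is represented by its probe set with the highest mean log2 signal over the 8 arrays. The 46 genes comprise 19 Wnt ligands, 4 R-spondins, 12 receptors of the Frizzled and LRP families, 8 secreted inhibitors, the pathway targets Axin2 and Lef1, and the antisense transcript Fzd10os, which the symbol pattern also takes in.

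Total RNA was measured in 4 groups with n = 2 arrays each: basal ganglia (BG) -/-, basal ganglia +/-, cortex (Ctx) -/- and cortex +/-. The genotype symbols stand in the sample titles without a gene name, and the series title names the mutants as Dlx1/2. No wild-type group is labelled, so the +/- arrays are what the -/- arrays are set against. The sources used here do not give age, strain, the number of animals behind an array or any pooling, so p-values measure only the spread between arrays, which may be technical. A source label reads blood and adrenal medulla, against the basal ganglia and cortex of the other labels. The summed signal of 8 cortical glutamatergic markers was 1558 to 1821 on the 4 BG arrays and 8376 to 9008 on the 4 Ctx arrays. The summed signal of 8 ventral telencephalic markers was 4109 to 6043 on the BG arrays and 86.9 to 788 on the Ctx arrays.

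Genotype moved with a sex difference. The X-linked transcript Xist had signals of 2340, 2519, 2457 and 2363 in -/- arrays and of at most 67.5 in +/- arrays, and 3 Y-linked genes passed the test as lower in -/- arrays of both regions. Genotype and sex therefore cannot be told apart here. None of the 46 members lies on the X or the Y chromosome in the RefSeq gene table. Choroid plexus markers summed to 12090 and 13952 in Ctx +/- arrays, most of it Ttr, and to 38.2 to 179 on the 6 others. In bulk tissue, fewer cells of a type and less RNA per cell cannot be told apart.

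Wnt proteins are secreted lipid-modified ligands that bind Frizzled receptors together with the co-receptors Lrp5 and Lrp6. Binding stabilises beta-catenin, which enters the nucleus and acts with Tcf and Lef transcription factors on targets such as Axin2, itself a feedback inhibitor. R-spondins potentiate the signal by keeping Frizzled receptors at the cell surface, whereas Sfrp proteins bind Wnts and most Dkk proteins block the LRP co-receptors. In the embryonic forebrain, Wnt signalling from the dorsal midline patterns the cortex, and the Dlx1 and Dlx2 homeobox genes act in the ventral telencephalon that forms the basal ganglia.

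Of the 46 members, 32 had a signal above the lowest 30% of probe sets and were tested. The 14 others, Wnt1, Wnt2, Wnt2b, Wnt3, Wnt8a, Wnt9a, Wnt9b, Wnt10a, Wnt10b, Wnt16, Rspo4, Lrp5, Dkk2 and Dkk4, had signals of 0.349 to 45.4 on all arrays. Detection calls were not used, so these low signals are values and not absence. Differences are on the scale of log2(signal + 16), which understates the change of dim genes. They were tested in limma with Benjamini-Hochberg adjustment over all 31526 probe sets tested, at a threshold of 0.05 for the adjusted p.

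The first question was whether the members differed between genotypes in the basal ganglia. Fzd3 was higher and Wnt7a lower in BG -/- than in BG +/- arrays. These were 2 of 32 tested members (6.25%), beside 7.82% of all genes tested (4.76% higher and 3.05% lower). With any 1 of the 4 BG arrays left out no member passed, while 1 passed without either Ctx -/- array and 3 without either Ctx +/- array. The median difference of the tested members was -0.13 on the log2 scale, against -0.08 for all genes, and 8 members (25%) had an unadjusted p under 0.05, beside 26.9% of all genes. In cortex, no member passed the limma test, beside 0.205% of all genes, and 2 members (6.25%), Wnt7a and Wnt8b, had an unadjusted p under 0.05, beside 8.6% of all genes. The genotype effect in BG minus that in Ctx passed for no member, beside 0.338% of all genes, with unadjusted p under 0.05 for Axin2 and Fzd5 (6.25%), beside 15.3% of all genes. No member's genotype effect was thus shown to differ between the regions.

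**Figure D1:**
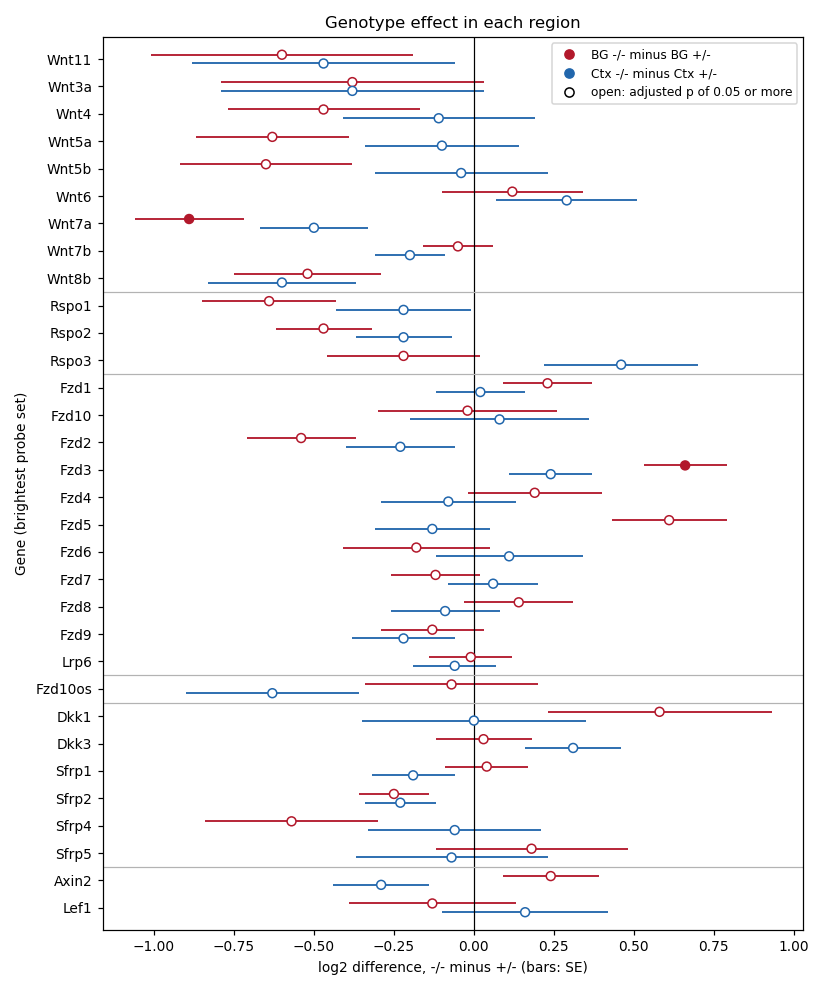
Genotype effect of the 32 tested members, -/- minus +/- on the log2(signal + 16) scale (horizontal axis), in BG (red) and Ctx (blue), with bars of 1 SE and lines between the role groups. Filled points have an adjusted p under 0.05, which holds for Wnt7a at -0.89 and Fzd3 at 0.66 in BG and for no member in Ctx.

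The second question was how the members were distributed between the regions. In -/- arrays 8 of 32 tested members (25%) passed the test between BG and Ctx, beside 18.7% of all genes. Of these, Fzd5 was higher in BG, beside 11.4% of all genes, and 7 were lower, beside 7.25% of all genes. In +/- arrays 11 members (34.4%) passed, beside 24.8% of all genes. Wnt7a and Fzd5 were higher in BG (14% of all genes) and 9 members were lower (10.7% of all genes). The members' median difference, BG minus Ctx, was -0.15 in -/- and -0.22 in +/- arrays on the log2 scale, against medians of 0.06 and 0.11 for all genes. Over all 46 members without the filter, the medians were -0.11 and -0.1, against 0.1 and 0.12.

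The balance of directions depends on scaling: higher calls were 61.8% of the probe sets passing between regions in -/- as deposited, 50.3% after quantile normalization and 26.5% after median centring. In +/- arrays these shares were 46.4%, 44.9% and 31.6%. Median centring moved the median of all probe sets to -0.21 for the -/- regions, against 0.08 as deposited. The 5 members that passed under every alternative in -/- were Fzd1, Fzd5, Rspo2, Rspo3 and Wnt7b, and the 4 in +/- were Fzd1, Rspo2, Rspo3 and Wnt7b. Leaving out BG -/- replicate 3 or Ctx -/- replicate 3 left 5 members passing in -/-. In +/- arrays 5 passed once BG +/- replicate 2 was left out, 6 once BG +/- replicate 3 or Ctx +/- replicate 3 was, and 7 once Ctx +/- replicate 2 was.

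**Figure D2:**
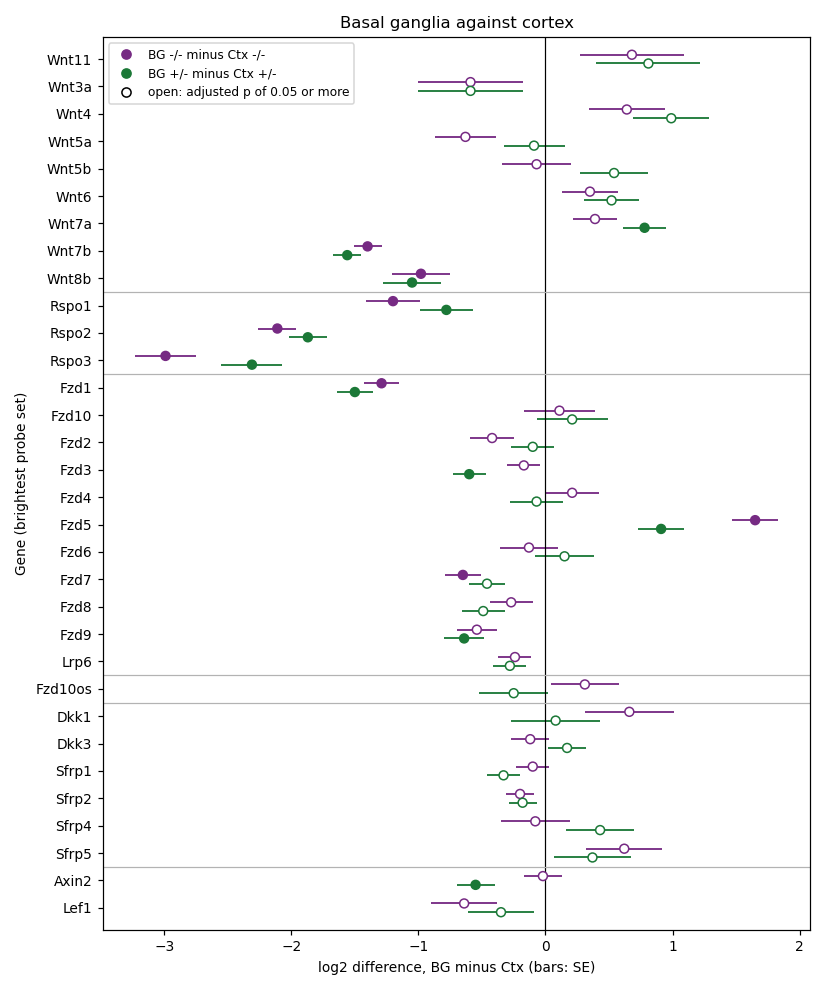
Difference BG minus Ctx on the log2(signal + 16) scale (horizontal axis) for the 32 tested members, in -/- (purple) and +/- arrays (green), with bars of 1 SE, lines between the role groups and filled points where the adjusted p is under 0.05. Rspo3, Rspo2, Wnt7b and Fzd1 lie below -1 and Fzd5 above 0 in both genotypes, and 26 of 32 members have the same sign.

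Across the 32 tested members the difference in -/- arrays correlated with that in +/- arrays at r = 0.906, and at 0.722 across all genes tested. The arrays of these comparisons are separate, but genes are not independent replicates, so no p is given. The members that passed in both genotypes numbered 7, of 12 that passed in either: Wnt7b, Wnt8b, Rspo1, Rspo2, Rspo3, Fzd1 and Fzd5. These are 58.3% of the 12, and of the 4391 genes that passed in either genotype 1528 (34.8%) passed in both. Whether these shares differ was not tested.

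Among the Wnt ligands, 9 of 19 were tested. Wnt7a, a ligand known for roles in neural progenitors and in brain vessel formation, had signals of 152 and 159 in BG -/- and 326 and 280 in BG +/- arrays. In cortex it had 106 and 126 in Ctx -/- and 146 and 196 in Ctx +/- arrays. Both BG -/- arrays lay below both BG +/- arrays, with a gap wider than the spread within either group. The mean was 156 ± 4.66 in BG -/- and 303 ± 32.1 in BG +/- (SD, n = 2 each). This is a log2 difference of -0.89 ± 0.17 (SE), adjusted p = 0.0263. In Ctx the difference was -0.50 ± 0.17 (adjusted p = 0.417), with both Ctx -/- arrays below both Ctx +/- arrays. The difference between these effects was -0.39 ± 0.24 (adjusted p = 0.443).

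Wnt7a was higher in BG than in Ctx in +/- arrays by 0.78 ± 0.17 (adjusted p = 0.0202). In -/- arrays the same region difference was 0.39 ± 0.17 (adjusted p = 0.163). The region call was lost without BG +/- replicate 2 or 3 (adjusted p of 0.0966 and 0.0523) or Ctx +/- replicate 2 (0.0583). The genotype call for Wnt7a was lost without any 1 of the BG arrays, with adjusted p of 0.124 and 0.0717 without BG +/- replicates 2 and 3, and 0.131 and 0.118 without BG -/- replicates 2 and 3. It was also lost without either Ctx -/- array (0.0508 each).

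Marker lists of other cells were also compared between the BG genotypes, where 7.82% of all genes passed (4.76% higher and 3.05% lower). Meningeal markers summed to 290 and 276 in BG -/- and to 424 and 414 in BG +/- arrays, and 1 of 6 tested, Fbln1, passed as lower. Red blood cell markers summed to 3125 and 2966 in BG -/- and to 6066 and 5732 in BG +/- arrays. Of 3 tested, 1 passed as lower, Hbb-y, which made up most of each sum. Diencephalic markers summed to 840 and 851 in BG -/- and to 549 and 488 in BG +/- arrays. Of 5 tested, 2 passed as higher, Otp at 1.06 and Lhx9 at 0.58. The others tested, Sim1, Gbx2 and Barhl2, differed by 0, 0.03 and -0.03. Ventral telencephalic markers summed to 4109 and 4127 in BG -/- and to 6043 and 5810 in BG +/- arrays. Of 8 tested, 2 passed as lower, Dlx5 and Ebf1, while Gsx2 and Nkx2-1 differed by 0.02 and 0.48. Endothelial and mural markers summed to 1634 and 1645 in BG -/- and to 1696 and 1712 in BG +/- arrays. Of 9 tested, 1 passed as higher, Rgs5 at 0.97. Of 8 cortical glutamatergic markers 1 passed as lower, Fezf2 at -0.68. The part of these cell types in the Wnt7a and Fzd3 results was not tested.

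Wnt7b, the closest relative of Wnt7a among the ligands, differed between regions. Its signals were 144 and 139 in BG -/- and 417 and 386 in Ctx -/- arrays, and 147 and 146 in BG +/- and 460 and 465 in Ctx +/- arrays. All 4 BG arrays lay below all 4 Ctx arrays. The log2 difference between regions was -1.40 ± 0.11 in -/- (adjusted p = 0.000741) and -1.56 ± 0.11 in +/- arrays (adjusted p = 0.000554). On this brightest probe set Wnt7b differed between genotypes by -0.05 ± 0.11 in BG and by -0.20 ± 0.11 in Ctx, and neither passed. Cortical glutamatergic markers, which were listed for being cortical, were also lower in BG. In -/- arrays 7 of 8 passed as lower and in +/- arrays 8 of 8, beside 7.25% and 10.7% of all genes. Their part in the Wnt7b difference was not tested.

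Wnt8b, a ligand of the dorsal midline and hippocampal primordium, had low signals, of 15.5 and 5.55 in BG -/- and 31.2 and 39.8 in Ctx -/- arrays. In +/- arrays it had 15.9 and 27.8 in BG and 60.8 and 62.5 in Ctx. All BG arrays lay below all Ctx arrays, and Ctx -/- lay below Ctx +/-. It was lower in BG, at a log2 difference of -0.98 ± 0.23 in -/- (adjusted p = 0.0324) and -1.05 ± 0.23 in +/- arrays (adjusted p = 0.0202). The genotype difference in Ctx was -0.60 ± 0.23 (adjusted p = 0.479). The region call was lost without Ctx -/- replicate 2 or 3 (adjusted p of 0.0913 and 0.147) or BG -/- replicate 3 (0.138), and in +/- without Ctx +/- replicate 2 or 3 (0.0597 and 0.0757) or BG +/- replicate 2 (0.0946). The 6 cortical hem and roof plate markers found summed to 139 and 167 in BG -/- and 186 and 127 in BG +/- arrays, with 90.4 and 95.6 in Ctx -/- and 180 and 68.4 in Ctx +/- arrays. Only 2 of these markers were tested and neither passed in any comparison.

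Wnt5a, a ligand known mainly for signalling without beta-catenin, had signals of 44.6 and 37.3 in BG -/- and 74.9 and 69.5 in BG +/- arrays. In cortex it had 57.5 and 88.7 in Ctx -/- and 97.4 and 62.1 in Ctx +/- arrays. The BG genotypes did not overlap, yet the difference of -0.63 ± 0.24 did not pass (adjusted p = 0.139). The Ctx genotypes overlapped. The 5 other tested ligands, Wnt3a, Wnt4, Wnt5b, Wnt6 and Wnt11, passed in no comparison, and the 9 tested ligands spanned log2 differences of -0.89 to 0.12 between genotypes in BG and of -0.60 to 0.29 in Ctx.

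**Figure D3:**
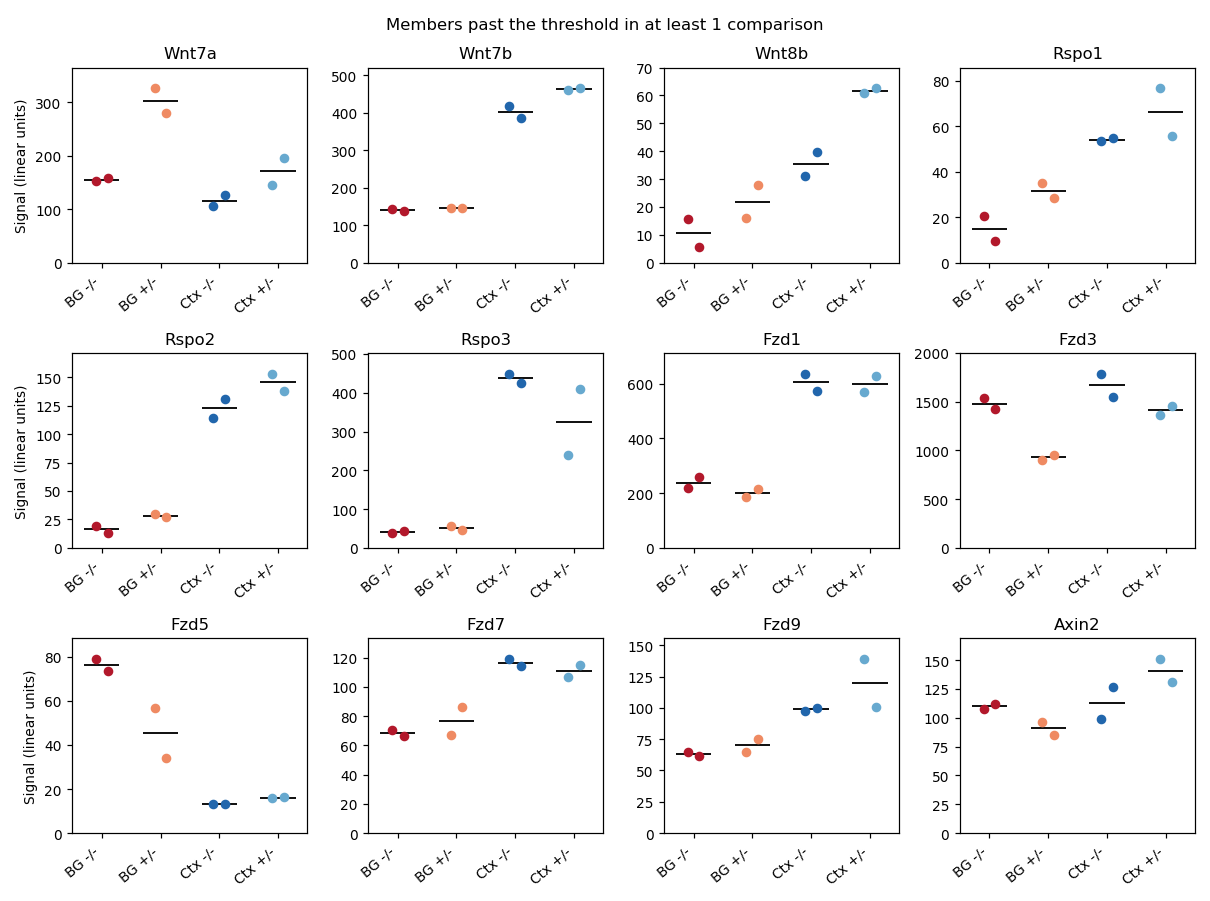
Signal on each array (vertical axis, linear scale, from 0) of the 12 members that passed the test in any comparison, in the order BG -/-, BG +/-, Ctx -/- and Ctx +/-. Each point is 1 array and each bar the mean of 2. The R-spondins, Wnt7b, Wnt8b, Fzd1, Fzd7 and Fzd9 have all BG arrays below all Ctx arrays.

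The promoter sequences of the ligands that passed are shown because Dlx1 and Dlx2 are homeodomain factors, which bind motifs with a TAAT core. RefSeq windows of assembly GRCm38.p6 run 250 bases before to 50 after a gene's start, and 29 members matched at least 1 of them, with 35 windows in all. Both strands were searched for TAATTA, a homeodomain motif, and for CTTTGAT and CTTTGTT, the core letters of Tcf and Lef sites. The 250 bases before the start lie at chr6:91411354-91411603 on the minus strand for Wnt7a and at chr19:44493222-44493471 on the plus strand for Wnt8b, both read towards the gene, with motif letters in capitals.
Wnt7a promoter: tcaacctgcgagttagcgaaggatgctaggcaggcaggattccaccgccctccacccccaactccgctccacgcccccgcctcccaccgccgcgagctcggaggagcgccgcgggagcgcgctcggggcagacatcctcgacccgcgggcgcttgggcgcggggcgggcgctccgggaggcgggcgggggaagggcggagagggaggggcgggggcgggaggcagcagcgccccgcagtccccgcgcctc
Wnt8b promoter: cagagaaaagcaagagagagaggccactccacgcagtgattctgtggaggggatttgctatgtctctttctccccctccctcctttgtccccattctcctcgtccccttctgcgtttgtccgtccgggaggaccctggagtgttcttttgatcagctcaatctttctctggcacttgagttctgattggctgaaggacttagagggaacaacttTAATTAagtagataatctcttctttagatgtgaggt
Wnt7a has a GC content of 77.6% here and none of the motifs in its window. Wnt8b has a GC content of 48.4% and TAATTA beginning 36 bases before the start. TAATTA is found in 1 of the 35 member windows (2.86%) and in 5.29% of all 32851 windows, CTTTGAT in 2 (5.71%) and 3.73%, and CTTTGTT in 3 (8.57%) and 5.85%. A match is a description of letters and not a bound site. Wnt7b, Rspo2, Rspo3 and Fzd3 had no window.

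All 3 tested R-spondins were lower in BG than in Ctx in both genotypes. Rspo3 had signals of 39.1 and 42.8 in BG -/- and 449 and 426 in Ctx -/- arrays. In +/- arrays it had 55.1 and 45.7 in BG and 239 and 409 in Ctx. The regions were far apart, and Ctx +/- replicate 2 was the lowest cortical array. The log2 difference was -2.99 ± 0.24 in -/- (adjusted p = 0.000724), the lowest of any tested member, and -2.31 ± 0.24 in +/- arrays (adjusted p = 0.00155).

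Rspo2 had signals of 19.5 and 12.9 in BG -/- and 114 and 131 in Ctx -/- arrays. In +/- arrays it had 29.6 and 27.0 in BG and 153 and 138 in Ctx. The arrays again split by region, with differences of -2.11 ± 0.15 in -/- (adjusted p = 0.00054) and -1.87 ± 0.15 in +/- arrays (adjusted p = 0.000781). Rspo1 had 20.6 and 9.35 in BG -/- and 53.3 and 54.9 in Ctx -/- arrays. In +/- arrays it had 34.9 and 28.4 in BG and 76.6 and 55.6 in Ctx. Its regions did not overlap in either genotype, with differences of -1.20 ± 0.21 (adjusted p = 0.0132) and -0.78 ± 0.21 (adjusted p = 0.0411) in -/- and +/- arrays.

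Of 6 tested choroid plexus markers 2, Ttr and Kcne2, passed as lower in Ctx -/- than in Ctx +/- arrays, beside 0.205% of all genes. Clic6, Folr1, Aqp1 and Cldn2 differed by -1.73, -1.86, -1.23 and -0.07 and did not pass. Ttr, the defining choroid plexus transcript, had 1.11 and 0.701 in Ctx -/- and 11634 and 13605 in Ctx +/- arrays. The choroid plexus sums were 179 and 166 in BG -/- and 118 and 38.2 in Ctx -/- arrays. In +/- arrays they were 162 and 174 in BG and 12090 and 13952 in Ctx. Ttr made up most of the Ctx +/- sums. The markers of Cajal-Retzius neurons, the earliest cortical neurons, summed to 1522 and 1548 in BG -/- and 3035 and 3042 in Ctx -/- arrays. In +/- arrays the sums were 1253 and 1218 in BG and 2085 and 2749 in Ctx. Reln made up most of each sum, with 1376 and 1403 in BG -/- and 2909 and 2916 in Ctx -/- arrays. In -/- arrays only Reln of the 4 markers passed, as lower in BG. Trp73, Lhx5 and Lhx1 differed by 0.06, 0.83 and -0.31 there. In +/- arrays 2 of 4, Reln and Trp73, passed as lower in BG. The part of choroid plexus and of Cajal-Retzius neurons in the R-spondin differences was not tested.

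No R-spondin passed between genotypes. Rspo1 and Rspo2 were below their BG +/- values on both BG -/- arrays, with differences of -0.64 ± 0.21 (adjusted p = 0.108) and -0.47 ± 0.15 (adjusted p = 0.0992). Rspo3 differed by 0.46 ± 0.24 between Ctx -/- and Ctx +/- (adjusted p = 0.589). The Rspo1 region call was lost without BG -/- replicate 3 (adjusted p = 0.0613) or either Ctx -/- array (0.0671 and 0.0685), and in +/- arrays without any 1 of the BG +/- (0.094 and 0.16), Ctx +/- (0.139 and 0.0531) or Ctx -/- arrays (0.0702 each).

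**Figure D4:**
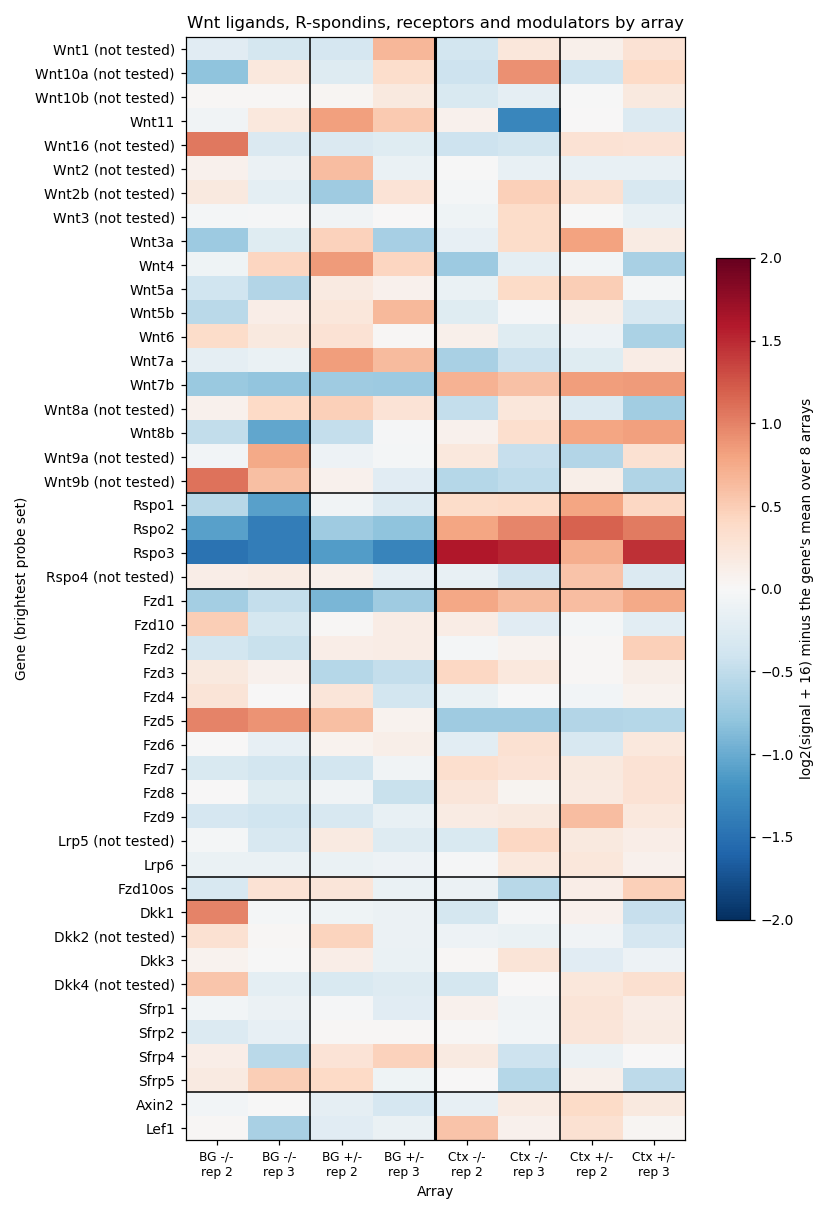
Signal of the members on every array as log2(signal + 16), grouped by role and shown relative to each gene's own mean over the 8 arrays, with columns in the order BG -/-, BG +/-, Ctx -/- and Ctx +/-. The rows of the 3 tested R-spondins, Wnt7b and Fzd1 are low in the 4 BG columns and high in the 4 Ctx columns, and Fzd5 runs the other way.

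Among the receptors, 11 of 12 were tested. Fzd3, a Frizzled receptor required for axon tract formation, had signals of 1534 and 1424 in BG -/- and 897 and 957 in BG +/- arrays. In cortex it had 1786 and 1547 in Ctx -/- and 1366 and 1454 in Ctx +/- arrays. The BG +/- arrays stood lowest of the 8. The mean was 1479 ± 77.9 in BG -/- and 927 ± 42.4 in BG +/- (SD, n = 2 each), a log2 difference of 0.66 ± 0.13 (adjusted p = 0.0272).

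In Ctx the genotype difference of Fzd3 was 0.24 ± 0.13 (adjusted p = 0.611), and the difference between the effects was 0.43 ± 0.18 (adjusted p = 0.289). Fzd3 was lower in BG than in Ctx in +/- arrays, at -0.60 ± 0.13 (adjusted p = 0.0193), and differed by -0.17 ± 0.13 in -/- arrays (adjusted p = 0.396). The region call was lost without BG +/- replicate 2 or 3 (adjusted p of 0.0892 and 0.0621) or Ctx +/- replicate 3 (0.0657). The genotype call did not hold without any 1 of the BG arrays, with adjusted p of 0.124 and 0.0853 without BG +/- replicates 2 and 3, and 0.144 and 0.112 without BG -/- replicates 2 and 3. Fzd3 has 5 tested probe sets, and the 4 others differed between BG genotypes by -0.20 to 0.55, none passing. The mean over all Fzd3 probe sets differed by 0.20 between BG genotypes and by 0.02 between regions in +/- arrays.

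Fzd5, a receptor with roles in eye and ventral forebrain development, was the only tested receptor that passed as higher in BG than in Ctx. It had 79.0 and 73.6 in BG -/- and 13.3 and 13.4 in Ctx -/- arrays. In +/- arrays it had 56.7 and 34.3 in BG and 15.9 and 16.3 in Ctx. The 4 Ctx arrays lay close together below every BG array. The log2 difference was 1.65 ± 0.18 in -/- (adjusted p = 0.00244) and 0.91 ± 0.18 in +/- arrays (adjusted p = 0.0146). Both BG -/- arrays exceeded both BG +/- arrays, but that difference of 0.61 ± 0.18 did not pass (adjusted p = 0.0839), nor did its difference from the effect in Ctx, 0.74 ± 0.26 (adjusted p = 0.22). Without Ctx +/- replicate 3 the region difference in +/- arrays had an adjusted p of 0.0541.

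Fzd1, a Frizzled receptor of the beta-catenin pathway, showed the opposite regional pattern. Its signals were 220 and 257 in BG -/- and 636 and 574 in Ctx -/- arrays, and 186 and 215 in BG +/- and 569 and 627 in Ctx +/- arrays. All BG arrays lay below all Ctx arrays, with a log2 difference of -1.29 ± 0.14 in -/- (adjusted p = 0.00249) and of -1.50 ± 0.14 in +/- arrays (adjusted p = 0.00127). Its genotype differences on this brightest probe set were 0.23 ± 0.14 in BG and 0.02 ± 0.14 in Ctx, and neither passed.

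Fzd7 and Fzd9 had smaller regional differences. Fzd7, a receptor with roles in stem cells, had 70.7 and 66.7 in BG -/- and 119 and 114 in Ctx -/- arrays, and 67.3 and 86.1 in BG +/- and 107 and 115 in Ctx +/- arrays. It passed in -/- arrays at -0.65 ± 0.14 (adjusted p = 0.0243) and not in +/- arrays at -0.46 ± 0.14 (adjusted p = 0.0539). Fzd9, a receptor known from hippocampal development, had 64.6 and 61.2 in BG -/- and 97.7 and 100 in Ctx -/- arrays, and 65.1 and 75.5 in BG +/- and 139 and 101 in Ctx +/- arrays. It passed in +/- arrays at -0.64 ± 0.16 (adjusted p = 0.0314) and not in -/- arrays at -0.54 ± 0.16 (adjusted p = 0.0623). For both receptors the regions did not overlap in either genotype, and the difference between the genotypes did not pass. The Fzd7 call was lost without any 1 of its own arrays (adjusted p of 0.0961 and 0.116 without BG -/- replicates 2 and 3, and 0.115 and 0.0937 without Ctx -/- replicates 2 and 3). The Fzd9 call was lost without BG +/- replicate 2 or 3 (0.133 and 0.0738), Ctx +/- replicate 2 (0.0781), either BG -/- array (0.056 each) or either Ctx -/- array (0.0572 each).

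The promoters of Fzd7 and Fzd1 are shown as those of 2 receptors that differed between regions, with and without a Tcf and Lef motif. The 250 bases before the start lie at chr1:59481897-59482146 on the plus strand for Fzd7 and at chr5:4758217-4758466 on the minus strand for Fzd1, of GRCm38.p6, with motif letters in capitals.
Fzd7 promoter: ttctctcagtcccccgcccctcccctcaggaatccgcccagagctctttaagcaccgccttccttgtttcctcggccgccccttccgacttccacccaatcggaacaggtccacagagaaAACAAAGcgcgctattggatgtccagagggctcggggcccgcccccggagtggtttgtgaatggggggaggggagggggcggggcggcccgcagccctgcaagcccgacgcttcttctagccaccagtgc
Fzd1 promoter: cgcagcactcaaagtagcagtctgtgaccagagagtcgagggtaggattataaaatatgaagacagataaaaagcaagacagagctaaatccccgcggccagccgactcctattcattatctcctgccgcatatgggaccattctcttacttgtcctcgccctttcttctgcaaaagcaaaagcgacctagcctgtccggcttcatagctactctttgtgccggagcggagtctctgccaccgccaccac
Fzd7 holds CTTTGTT on the opposite strand, printed here as AACAAAG, beginning 130 bases before the start. Its GC content is 65.2%. Fzd1 holds none of the motifs in its window and has a GC content of 51.2%. Of the 12 members that passed in any comparison, 8 had a window and 2, Wnt8b and Fzd7, held a motif.

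Fzd2, another Frizzled receptor, had signals of 253 and 238 in BG -/- and 361 and 368 in BG +/- arrays, without overlap. Its difference of -0.54 ± 0.17 did not pass (adjusted p = 0.0903), but had an adjusted p of 0.0397 without either Ctx +/- array. In cortex it had 319 and 347 in Ctx -/- and 335 and 462 in Ctx +/- arrays, which overlapped. The co-receptor Lrp6 had 197 and 197 in BG -/- and 197 and 201 in BG +/- arrays, with 215 and 256 in Ctx -/- and 259 and 231 in Ctx +/- arrays, and passed in no comparison. The remaining tested receptors, Fzd4, Fzd6, Fzd8 and Fzd10, also passed in none.

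Of the 8 secreted inhibitors, 6 were tested and none passed in any of the 5 comparisons. Sfrp1, which binds Wnt ligands outside the cell, had 338 and 322 in BG -/- and 344 and 296 in BG +/- arrays, with 373 and 334 in Ctx -/- and 420 and 391 in Ctx +/- arrays. Sfrp2, of the same family, had 124 and 134 in BG -/- and 156 and 156 in BG +/- arrays, with 156 and 146 in Ctx -/- and 184 and 174 in Ctx +/- arrays. In both regions both -/- arrays of Sfrp2 lay below both +/- arrays, with differences of -0.25 ± 0.11 in BG (adjusted p = 0.216) and -0.23 ± 0.11 in Ctx (adjusted p = 0.589). Dkk3, a divergent Dkk family member, had 85.1 and 79.5 in BG -/- and 89.9 and 71.9 in BG +/- arrays, with 82.3 and 99.9 in Ctx -/- and 66.1 and 73.7 in Ctx +/- arrays. Its BG genotypes overlapped. Across the 6 inhibitors, log2 differences ran from -0.57 to 0.58 between genotypes in BG and from -0.23 to 0.31 in Ctx.

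Neither target gene passed between genotypes. Axin2, the feedback inhibitor, had 108 and 112 in BG -/- and 96.7 and 85.5 in BG +/- arrays. In cortex it had 98.7 and 127 in Ctx -/- and 151 and 131 in Ctx +/- arrays. On this brightest probe set the genotypes did not overlap in either region and lay in opposite order. Neither difference passed, with 0.24 ± 0.15 in BG (adjusted p = 0.359) and -0.29 ± 0.15 in Ctx (adjusted p = 0.594). Their difference of 0.53 ± 0.22 did not pass either (adjusted p = 0.272). The second Axin2 probe set, at lower signals, differed by -0.44 ± 0.37 in BG and by 0.01 ± 0.37 in Ctx, and neither passed. Axin2 was lower in BG than in Ctx in +/- arrays, at -0.55 ± 0.15 (adjusted p = 0.0424), and differed by -0.02 ± 0.15 in -/- arrays. The region call was lost without either BG +/- array (adjusted p of 0.0931 and 0.166), either BG -/- array (0.0725 each) or either Ctx +/- array (0.125 and 0.0656), and the mean over its probe sets differed by -0.05.

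Lef1, a transcription factor that acts with beta-catenin, had 68.3 and 36.6 in BG -/- and 54.9 and 59.2 in BG +/- arrays, with 107 and 71.8 in Ctx -/- and 85.9 and 69.1 in Ctx +/- arrays. The genotypes overlapped in both regions, and no comparison passed. The antisense transcript Fzd10os had 19.5 and 38.2 in BG -/- and 36.5 and 24.5 in BG +/- arrays, with 25.2 and 14.4 in Ctx -/- and 32.8 and 45.7 in Ctx +/- arrays, and passed in none. The strand of its probes was not examined.

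Several members were read by more than 1 probe set, which gives a further measure of the same RNA on the same arrays. For 14 genes another 23 probe sets were tested. None passed in limma between genotypes in BG or Ctx or for the difference of these effects, beside 9.74%, 0.225% and 0.574% of all probe sets. Between regions 9 of them passed in -/- and 6 in +/- arrays, beside 17.2% and 23.8% of all probe sets. The second probe sets of Wnt7b, Fzd1 and Rspo3 passed in the same direction in both genotypes, with log2 differences of -1.66, -1.03 and -1.30 in -/- and of -2.09, -0.61 and -1.09 in +/- arrays. The second probe sets of Fzd5 and Rspo2 were too dim to be tested and did not split by region. Their signals were 1.85 to 22.5 for Fzd5 and 3.44 to 33.1 for Rspo2. The second probe set of Wnt7a differed by -0.66 ± 0.46 between BG genotypes (adjusted p = 0.399). Those of Wnt7b and Fzd1 had the opposite sign to the brightest between BG genotypes. Wnt7b differed there by 0.53 ± 0.21 (adjusted p = 0.158), against -0.05, and Fzd1 by -0.32 ± 0.14 (adjusted p = 0.188), against 0.23.

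For Fzd2 the 3 tested probe sets had the same sign between regions but differed in size. The brightest differed by -0.42 ± 0.17 between regions in -/- arrays (adjusted p = 0.131), while another differed by -1.56 ± 0.11 (adjusted p = 0.00058), with signals of 132 and 126 in BG -/- and 427 and 399 in Ctx -/- arrays. In +/- arrays that probe set differed by -1.06 ± 0.11 (adjusted p = 0.00185), with 173 and 172 in BG and 368 and 389 in Ctx. Its BG arrays lay below all Ctx arrays, which the brightest probe set did not show. The remaining Fzd2 probe set differed by -0.90 ± 0.17 in -/- (adjusted p = 0.0166) and by -0.38 ± 0.17 in +/- arrays (adjusted p = 0.157). Between BG genotypes the 3 Fzd2 probe sets differed by -0.54, -0.52 and -0.38, and none passed. Other probe sets of Wnt5a, Dkk3 and Lrp6 passed as lower in BG -/- than in Ctx -/-. The dimmest Wnt5a probe set differed by -1.12 ± 0.16 (adjusted p = 0.0063) and another by -0.79 ± 0.19 (adjusted p = 0.0373). The dimmest, at signals of 3.96 to 36.4, also passed in +/- arrays, at -0.65 ± 0.16 (adjusted p = 0.0294). In -/- arrays Dkk3 differed by -1.0 ± 0.16 (adjusted p = 0.0102) and Lrp6 by -0.61 ± 0.15 (adjusted p = 0.0365). For Sfrp1, 1 of 5 tested probe sets passed between regions in +/- arrays, at -0.64 ± 0.12 (adjusted p = 0.0125).

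**Figure D5:**
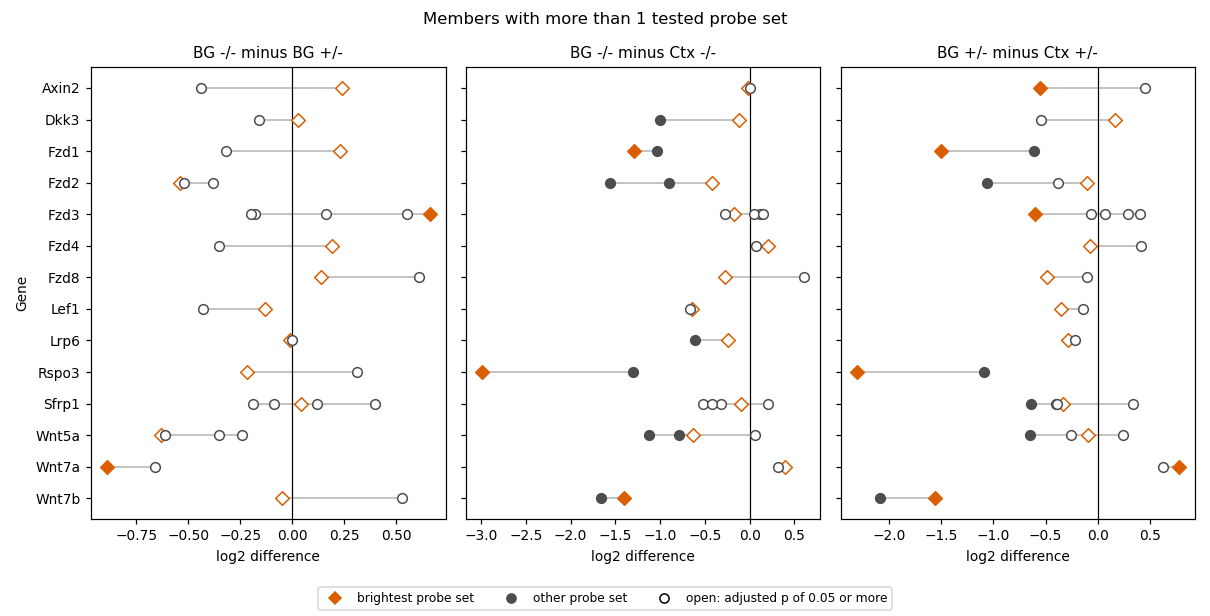
Log2 difference of every tested probe set of the 14 members with more than 1, for BG -/- minus BG +/-, BG -/- minus Ctx -/- and BG +/- minus Ctx +/-. Diamonds are the brightest probe set and circles the others, filled where the adjusted p is under 0.05. Between regions the probe sets of Fzd2 lie apart but, like those of Wnt7b and Rspo3, fall below 0. Those of Fzd3 lie on both sides of 0.

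Other genes of the pathway were taken from 4 lists of 62 genes in all, of which 53 were tested. Between BG genotypes 2 were higher and 2 lower, 7.55% of the 53 beside 7.82% of all genes, a share near the background. Wls, the carrier that brings Wnt proteins to the cell surface, had signals of 88.4 and 75.4 in BG -/- and 164 and 155 in BG +/- arrays, without overlap. It differed by -0.84 ± 0.16 (adjusted p = 0.0241). Sp5, a transcription factor induced by Wnt signalling, had 10.5 and 4.94 in BG -/- and 29.0 and 25.0 in BG +/- arrays. It differed by -0.87 ± 0.16 (adjusted p = 0.0248), at signals near the offset, and by -1.44 with an offset of 4 and -0.34 with an offset of 64.

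The 2 higher genes act on beta-catenin degradation. Apc, a scaffold of the destruction complex, had 2270 and 2264 in BG -/- and 1576 and 1675 in BG +/- arrays and differed by 0.48 ± 0.11 (adjusted p = 0.0453). Tnks, an enzyme that marks Axin for degradation, had 749 and 738 in BG -/- and 444 and 448 in BG +/- arrays and differed by 0.72 ± 0.14 (adjusted p = 0.0299), against 0.18 for the mean over its probe sets. None of the 53 passed between Ctx genotypes or for the difference between regions. The calls of Wls, Sp5, Apc and Tnks were each lost without any 1 of the 4 BG arrays, with adjusted p of at most 0.129, 0.125, 0.184 and 0.14. Without either Ctx -/- array, the adjusted p was 0.0871 for Apc and 0.0635 for Tnks.

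Between regions, 4 of the 53 were higher and 7 lower in BG in -/- arrays, and 6 were higher and 8 lower in +/- arrays. These are 20.8% and 26.4% of the 53, beside 18.7% and 24.8% of all genes. Lgr4, a receptor for R-spondins, had 210 and 206 in BG -/- and 83.3 and 76.2 in Ctx -/- arrays. In +/- arrays it had 213 and 232 in BG and 56.4 and 34.7 in Ctx. It was thus higher in BG by 1.23 ± 0.18 in -/- (adjusted p = 0.00707) and by 1.97 ± 0.18 in +/- arrays (adjusted p = 0.00114), while Rspo1, Rspo2 and Rspo3 were lower. Draxin, a secreted axon guidance protein that also binds Lrp6, was lower in BG, at -1.20 ± 0.11 (adjusted p = 0.00137) in -/- and -1.0 ± 0.11 (adjusted p = 0.0022) in +/- arrays. Among the planar polarity genes, Celsr1 was lower in BG, at -1.60 ± 0.15 in -/- (adjusted p = 0.00133) and -1.37 ± 0.15 in +/- arrays (adjusted p = 0.00202). Prickle1 was lower too, at -1.14 ± 0.13 in -/- (adjusted p = 0.00264) and -1.11 ± 0.13 in +/- arrays (adjusted p = 0.00247). Over the mean of their probe sets, Draxin differed by -0.75 in -/- and -0.52 in +/- arrays and Prickle1 by -0.41 and -0.35. Ccnd1, a cell cycle gene often listed as a target, was higher in BG by 0.67 ± 0.12 in -/- (adjusted p = 0.0135) and by 0.68 ± 0.12 in +/- arrays (adjusted p = 0.00991), and by 0.39 in -/- arrays after median centring (adjusted p = 0.0739).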

How the data were processed

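The deposited table holds 1 intensity per probe set and array, on a linear scale, for 45101 probe sets on 8 mouse arrays. The 2% trimmed mean was 150.001 on every array, so the authors' deposited values share a common level. The software is not given in the sources used here. Median signals were 38 to 51.6, and 24.6% to 34.1% of signals were below 16. Arrays of a group correlated at 0.971 to 0.983 across probe sets, arrays of different groups at 0.905 to 0.976.

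After leaving out 64 controls and the lowest 30% by mean, 31526 probe sets were analysed as log2(signal + 16). A model of 4 group means over all arrays was fitted with lmFit and eBayes in limma 3.58.1 under R 4.3.3 (4 residual and 2.76 prior degrees of freedom), with two-sided tests and Benjamini-Hochberg adjustment. The fit was tested on simulated data. The offset, filter, normalization, variance trend, replicate block, arrays in the fit, probe set rule and single arrays were varied.

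Given with every array are members past the threshold in any comparison and the 3 brightest of each role. Lrp6 and the Fzd2 probe sets were added after their values were seen. Wnt4, Dkk1 and the second Fzd8 probe set, given under other observations, also fall outside this rule. The members, lists and rules were chosen with earlier results of these data known. Gene symbols come from GEO's platform annotation, and chromosomes and promoters from RefSeq GRCm38.p6.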

Additional observations from a re-analysis of the deposited data

How the results depend on the processing

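The count of members passing between BG genotypes, 2 as reported, was 1 without the filter on dim probe sets, 1 with median centring, 0 with the arrays of the comparison only, and 0 to 3 when 1 array was left out. The count between regions in -/-, 8 as reported, was 14 with median centring, 12 when any probe set of a gene could count, and 5 to 10 when 1 array was left out. In +/- it was 11, 14 when any probe set could count, 13 with an offset of 64 or a variance trend, 5 with the arrays of the comparison only and 5 to 10 when 1 array was left out. No member passed between Ctx genotypes or for the difference of the genotype effects under any alternative. The mean over all Fzd3 probe sets gave 0.20 between BG genotypes, against 0.66 for the brightest, and 0.02 between regions in +/-, against -0.60. With an offset of 64, the region differences of dim members were smaller but still passed: in -/- Fzd5 was at 0.86, Rspo1 at -0.58, Rspo2 at -1.22 and Wnt8b at -0.42, and in +/- Fzd5 at 0.44, Rspo1 at -0.44, Rspo2 at -1.18 and Wnt8b at -0.55. With an offset of 4, Wnt8b was at -1.52 in -/- (adjusted p = 0.0508). The cause of the changes in counts and for Fzd3 was not tested.

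The replicate numbers 2 and 3 recur in every group, but the labels state no pairing, and the deviations of same-numbered arrays correlated at -0.03 to 0.02. With the replicate number as a block, 1 member passed between BG genotypes. Of 1596 values for members under alternatives, 1480 were counted as the same. For members that did not pass, that count does not require the direction to hold. Lef1, at -0.13 between BG genotypes, ran from -0.47 to 0.21 when 1 array was left out and was counted as the same throughout. Over all probe sets, the alternatives gave counts of 113 to 5889 for BG genotypes (3070 as reported), 19 to 212 for Ctx genotypes (71), 3 to 1816 for their difference (181), 1896 to 7676 between regions in -/- (5438) and 3466 to 9472 in +/- (7518). Precision is limited by having 2 arrays in each group.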

Other observations

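Wnt4, a ligand with roles in kidney and gonad development, had the highest region difference of the 32 tested members in +/- arrays. Its signals were 50.2 and 33.7 in BG +/- and 19.5 and 7.47 in Ctx +/- arrays, without overlap. The log2 difference of 0.99 ± 0.30 did not pass (adjusted p = 0.0562). In -/- arrays it had 18.7 and 33.8 in BG and 6.15 and 16.1 in Ctx, again without overlap, and differed by 0.64 ± 0.30 (adjusted p = 0.185).

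Dkk1, an inhibitor of the LRP co-receptors, had 52.1 and 17.2 in BG -/- and 16.3 and 15.5 in BG +/- arrays. A single array, BG -/- replicate 2, thus stood apart, and the difference of 0.58 ± 0.35 did not pass (adjusted p = 0.331). The second Fzd8 probe set had 171 and 158 in BG -/- and 127 and 82.4 in BG +/- arrays. It differed by 0.61 ± 0.18 (adjusted p = 0.0867), against 0.14 ± 0.17 for the brightest Fzd8 probe set (adjusted p = 0.658).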
